A study of Mus musculus with 2 samples.

Results

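The 10 genes described here encode transcription factors of squamous differentiation, the process by which cells of a stratified epithelium leave the basal layer and become flat surface cells. They are the zinc finger factors Klf4 and Klf5, the grainyhead-like factors Grhl1, Grhl2 and Grhl3, the zinc finger factor Ovol1, the epithelial ETS factors Elf3 and Ehf, and the AP-2 factors Tfap2a and Tfap2c. The list was set by name and not by a cutoff on measured values, but with earlier results of these data known. All 10 were found by symbol among the 32285 genes of the count matrices. Their UMI (unique molecular identifier) counts were taken from 1 p63-KO library, with the genotype p63-CreER/p63-CreER, and 1 wild-type library, with the genotype p63-CreER. Both libraries were esophageal epithelium of C57BL/6 mouse littermates taken at E18.5. By these genotypes, cells of both groups carried the p63-CreER allele, the controls being labelled wild type all the same. The number of embryos behind each library is not given in the sources used here. Cells with Xist RNA only (912 p63-KO and 3342 wild type) and cells with Y-linked RNA only (396 and 1457) were found, so each library held both sexes. No replicates were available, and every interval below covers counting error only.

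In the esophagus, basal cells expressing p63 (gene Trp63) divide and give rise to suprabasal cells, which express Krt4 and Krt13 and end as superficial cells that build a cornified envelope. KLF factors bind GC-rich and CACCC elements, and Klf4 is known for its role in terminal differentiation while Klf5 is known for its role in basal cell proliferation. Grainyhead-like factors control epithelial junction and barrier genes, Ovol1 is known in epidermis for restraining proliferation of progenitors as they differentiate, and Elf3 and Ehf bind ETS sites in genes of differentiating epithelia. AP-2 factors act in keratinocytes beside p63.

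The filter left 2375 p63-KO cells (19355 UMIs at the median) and 5519 wild-type cells (10920 UMIs at the median). Of these, 1682 p63-KO cells (70.8%) and 5358 wild-type cells (97.1%) clustered as epithelial-like, with medians of 25310.5 and 11057.5 UMIs. The other named p63-KO cells were 513 fibroblast-like, 74 smooth muscle or pericyte-like, 71 endothelial-like and 18 immune-like cells. The 8 fibroblast markers summed to 565 CPM (counts per 1e6 UMIs) in p63-KO epithelial-like cells and 49.5 CPM in wild-type ones, against 45882 CPM in p63-KO fibroblast-like cells. The libraries shared 5 barcodes among kept cells. Trp63 RNA itself stood at 118 CPM in p63-KO and 303 CPM in wild-type epithelial-like cells. Counts at the 3′ end of a transcript do not show whether the protein is made, and the change that the p63-CreER allele makes in Trp63 is not described in the sources used here, so this does not check the genotype.

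Klf4 lies on chromosome 4 at 55527143-55532466 on the minus strand, Grhl3 on chromosome 4 at 135541888-135573630 on the minus strand, Elf3 on chromosome 1 at 135253575-135258568 on the minus strand, and Tfap2a on chromosome 13 at 40715302-40738376 on the minus strand, in GENCODE M21 on mm10. Promoter windows of RefSeq (build GRCm38.p6) were available for 5 of the 10 genes, with 7 windows in all. Shown are the 250 bases before the start for Klf4, Grhl3 and Elf3, which were all higher in the upper wild-type layers, and for both windows of Tfap2a, which was nearly absent in the p63-KO library. The windows are chr4:55532476-55532725 for Klf4, chr4:135573633-135573882 for Grhl3, chr1:135258473-135258722 for Elf3, and chr13:40734921-40735170 and chr13:40733796-40734045 for Tfap2a, all on the minus strand and written 5′ to 3′. Capitals mark matches, on either strand, to the KLF motif CCNCNCCC or the AP-2 motif GCCNNNGGC, and neighbouring matches can run together.
Klf4: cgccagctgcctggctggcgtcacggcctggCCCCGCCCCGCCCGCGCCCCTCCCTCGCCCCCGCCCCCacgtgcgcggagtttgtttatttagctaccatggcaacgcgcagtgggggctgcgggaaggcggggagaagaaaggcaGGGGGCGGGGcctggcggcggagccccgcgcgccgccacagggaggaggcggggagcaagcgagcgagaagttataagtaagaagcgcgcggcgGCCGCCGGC
Grhl3: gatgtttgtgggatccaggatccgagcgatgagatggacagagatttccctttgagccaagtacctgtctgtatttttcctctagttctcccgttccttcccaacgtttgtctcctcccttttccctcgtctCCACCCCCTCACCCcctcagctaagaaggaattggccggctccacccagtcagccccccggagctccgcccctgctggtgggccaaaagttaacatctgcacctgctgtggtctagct
Elf3: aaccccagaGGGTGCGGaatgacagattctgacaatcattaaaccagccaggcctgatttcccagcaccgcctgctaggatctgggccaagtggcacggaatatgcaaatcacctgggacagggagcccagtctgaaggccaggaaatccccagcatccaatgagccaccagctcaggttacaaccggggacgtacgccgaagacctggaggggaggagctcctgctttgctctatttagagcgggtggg
Tfap2a, window 1: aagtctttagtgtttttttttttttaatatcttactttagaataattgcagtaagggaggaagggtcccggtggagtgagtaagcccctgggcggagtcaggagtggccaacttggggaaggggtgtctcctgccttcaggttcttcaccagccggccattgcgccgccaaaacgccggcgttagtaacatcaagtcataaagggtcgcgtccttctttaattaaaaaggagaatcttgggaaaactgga
Tfap2a, window 2: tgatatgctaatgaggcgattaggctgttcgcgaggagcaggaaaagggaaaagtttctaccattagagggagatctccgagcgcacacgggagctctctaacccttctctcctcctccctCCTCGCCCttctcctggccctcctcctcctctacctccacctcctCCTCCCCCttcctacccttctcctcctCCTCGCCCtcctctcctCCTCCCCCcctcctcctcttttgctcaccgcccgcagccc
The Klf4 window held 9 KLF matches and 1 AP-2 match, the Grhl3 window 2 KLF matches, the Elf3 window 1 KLF match, and the Tfap2a windows 0 and 4 KLF matches. Of the Grhl1 windows, not printed, the one at the upstream start held 2 KLF matches and 1 AP-2 match and the other held none of either. None of the 7 windows matched the GRHL motif AACCNGTT, the ETS motif CCGGAAG or a p53-family half-site. Among all 32851 promoter windows of the same length, 45.9% held the KLF motif, 13.7% the AP-2 motif, 1.79% the GRHL motif, 6.91% the ETS motif and 7.13% the p53-family half-site. A match describes letters and is not a binding site.

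The wild-type cells gave the order of the factors through the layers. Cells were clustered without the 10 genes and without the 30 family relatives and 26 other regulators described below among the variable genes, and subclusters were named from keratins and other layer markers. The layers were still defined by genes of the same cells, so differences between layers are a description. In basal-like cells (469 cells), Grhl1 had 6.56 CPM, Grhl3 12.0 CPM, Ovol1 11.5 CPM, Elf3 44.1 CPM, Ehf 40.7 CPM and Klf4 100.5 CPM. In suprabasal-like cells (922 cells), the same genes had 75.6, 135.6, 66.2, 200.3, 404.3 and 224.5 CPM, and in superficial-like cells (394 cells) 100.6, 114.5, 72.5, 423.9, 457.8 and 252.6 CPM. Each of the 6 genes was therefore lower in basal-like cells than in either upper layer, Klf4 by the smallest ratio.

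By fold, superficial-like against basal-like cells, Grhl1 was 15.3-fold higher (95% interval 10.6 to 23.0), Ehf 11.2-fold (9.68 to 13.1), Elf3 9.60-fold (8.31 to 11.1), Grhl3 9.54-fold (7.24 to 12.8), Ovol1 6.28-fold (4.72 to 8.53) and Klf4 2.51-fold (2.27 to 2.79). So 6 of the 10 factors were at least 2-fold higher in superficial-like cells, where 13.5% of all 11070 measured genes were. A gene counted as measured with at least 5 CPM on either side. The median log2 ratio, taken with 1 CPM added on both sides, was 1.94 over the 10 factors and -0.48 over all measured genes. Grhl2 went the other way, with 81.7 CPM in superficial-like and 176.1 CPM in basal-like cells. It was the single factor at least 2-fold lower (2.16-fold, 1.94 to 2.39), where 30.5% of measured genes were. Between cells of the highest and of the lowest keratin bin, described below, its log2 ratio was -0.89, short of 2-fold.

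Among the factors that were under 2-fold between superficial-like and basal-like cells, Klf5 had 674.9 CPM in basal-like, 891.8 CPM in suprabasal-like and 813.2 CPM in superficial-like cells, all within 1.32-fold of the basal level. Of the named layers, Tfap2a was highest in basal-like cells, 21.7 CPM, with 12.6 CPM in suprabasal-like (10.9 to 14.5) and 13.2 CPM in superficial-like cells. The larger unnamed subcluster 1, described below, had 14.2 CPM (11.9 to 16.7), which overlaps the suprabasal-like level. In the order of its wild-type levels, 9 of 9 neighbouring states had overlapping counting intervals. Its paralog Tfap2c had 13.1 CPM in basal-like, 33.5 CPM in suprabasal-like and 24.1 CPM in superficial-like cells. Among these named layers, the 2 AP-2 genes thus had their highest levels in different ones, which for Tfap2a rests on the basal-like subcluster alone. Suprabasal-like against basal-like cells, 7 of the 10 factors were at least 2-fold higher (10.8% of 10940 measured genes), the 6 above and Tfap2c (2.55-fold, 1.94 to 3.41), and 0 were lower (16.7%).

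In a state between the layers, 5 of the factors already stood at least 2-fold above basal-like cells. Subcluster 4 (511 cells), which stayed unnamed and was led by Mctp1, Notch1 and Krtdap, had intermediate levels. There Grhl3 had 82.4 CPM, 6.87-fold above basal-like cells (5.16 to 9.31), Grhl1 39.2 CPM, 5.97-fold (4.04 to 9.13), Ehf 241.9 CPM, 5.94-fold (5.08 to 6.98), Ovol1 35.3 CPM, 3.05-fold (2.23 to 4.24), and Tfap2c 29.9 CPM, 2.27-fold (1.68 to 3.12). These were the 5 factors at least 2-fold higher, where 4.39% of 10767 measured genes were. Elf3 had 85.6 CPM there, 1.94-fold above basal-like cells, with an interval (1.64 to 2.30) that holds 2-fold and overlaps that of Tfap2c. Klf4 had 133.4 CPM, 1.33-fold (1.18 to 1.5). Grhl2 had 176.2 CPM in subcluster 4 and 176.1 CPM in basal-like cells. From suprabasal-like to superficial-like cells, Elf3 alone differed by at least 2-fold, with 2.12-fold more in superficial-like cells (2.02 to 2.22; 4.52% of measured genes were higher), while the other 9 factors had ratios from 0.72 to 1.33.

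**Figure D1:**
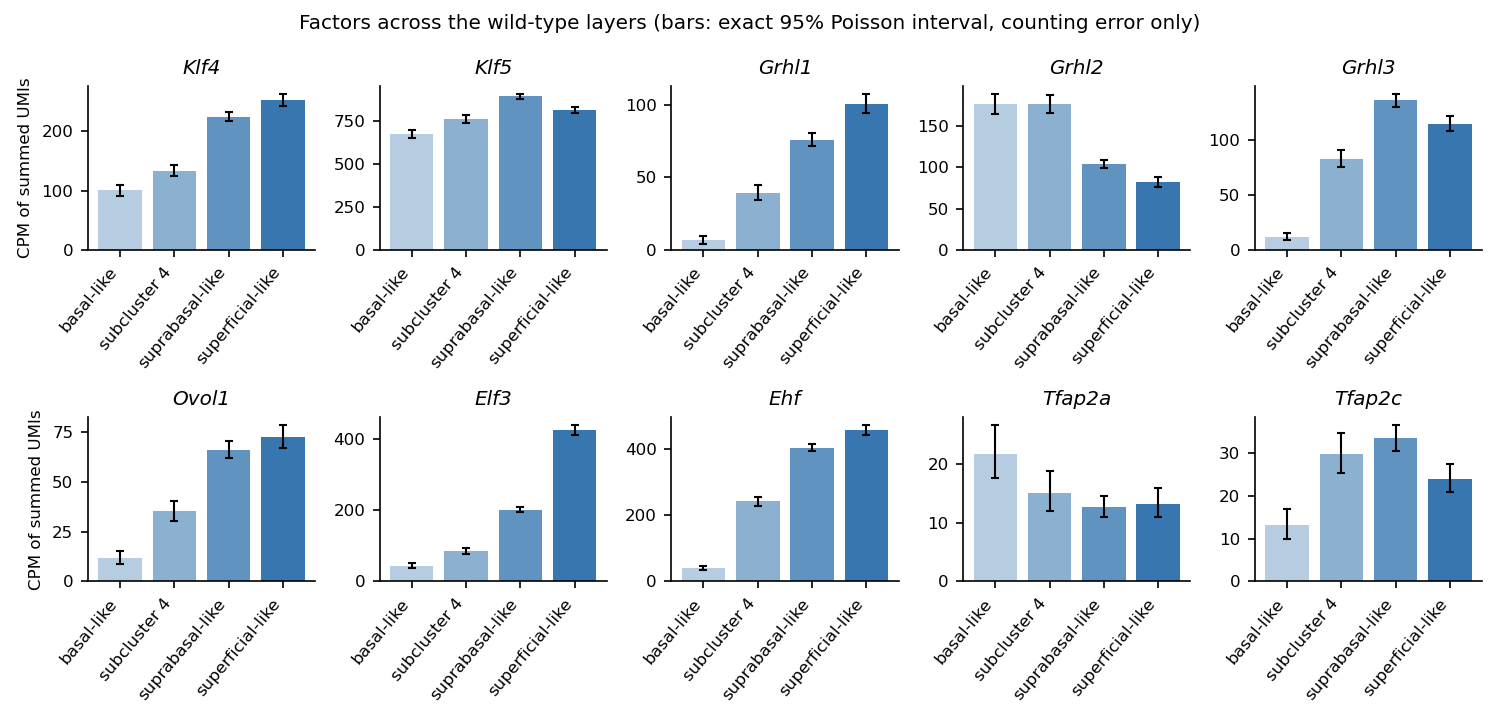
CPM of summed UMIs (y axis) of each factor in basal-like cells, subcluster 4, suprabasal-like and superficial-like cells of the wild-type library (x axis), with exact 95% Poisson intervals for counting error. Grhl1, Elf3 and Ehf were highest in superficial-like cells, Grhl3 and Tfap2c in suprabasal-like cells, and Grhl2 and Tfap2a at the basal end.

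Cycling wild-type cells were close to basal-like cells. In S-phase cells (986), 0 factors were at least 2-fold higher (6.57% of measured genes were) and 0 lower (2.41%). In cells of G2 and mitosis (959), Ehf was 2.65-fold higher than in basal-like cells (108.0 against 40.7 CPM; 2.27 to 3.12) and the other 9 stayed under 2-fold, where 6.23% of measured genes were higher. Subcluster 1 (1093 cells, led by Trpc4, Ntf3, Nkain3 and Shh, with no name from the markers) had 0 factors past 2-fold in either direction against basal-like cells, where 3.82% of measured genes were. Over the 10 wild-type states with at least 50 cells, Grhl3 ranged from 6.54 CPM in an S-phase subcluster to 142.0 CPM in a suprabasal-like one. In the order of its levels, 7 of 9 neighbouring states had overlapping counting intervals.

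Across these 10 states, Pearson correlations of log2 CPM (1 added), given as descriptions without a test, were highest for Grhl3 with Ehf (0.98), Grhl3 with Ovol1 (0.98) and Klf4 with Elf3 (0.97). Those of Grhl2 were negative with 8 of the other 9 factors, for example -0.89 with Elf3, -0.85 with Klf4 and -0.82 with Grhl1. Across the 11 p63-KO states, the correlation of Grhl2 with Grhl1 was 0.94, with Elf3 0.91 and with Klf4 0.73. The 2 sets of states do not hold the same kinds of cells. No wild-type state was named neuroendocrine- or ionocyte-like. In p63-KO neuroendocrine-like subclusters 4 and 11, Grhl2 had 17.4 and 19.1 CPM, Grhl1 7.24 and 2.95 CPM and Elf3 32.9 and 20.6 CPM. No correlation is given without these states. States of a library share its reagents and depth, and cells were assigned to states from genes expressed beside these factors.

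In p63-KO epithelial-like cells, 9 of the 10 factors had 15.1 CPM or more, and Tfap2a was nearly absent. In all epithelial-like cells, p63-KO levels were lower by at least 2-fold for 3 of 10 factors, where 8.82% of all 11777 measured genes were lower. None of the 10 was at least 2-fold higher, where 15.0% of measured genes were. The median log2 ratio was -0.02 over the factors and -0.02 over all measured genes. The 3 lower genes were Tfap2a, Grhl3 and Ovol1. Deep cells weigh more in such sums: unnamed p63-KO subcluster 2 (256 cells, 78083 UMIs at the median) held 20274819 of the 72329954 p63-KO epithelial-like UMIs.

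Tfap2a, an AP-2 factor known in epidermis for its part in keratin gene control, had 4 UMIs in p63-KO epithelial-like cells (0.0553 CPM) and 947 UMIs in wild-type ones (13.8 CPM). It was 250-fold lower in p63-KO (interval 97.4 to 920). The 4 UMIs lay in 4 of 1682 cells (0.238%, exact interval 0.0648 to 0.608%), while 823 of 5358 wild-type cells (15.4%, 14.4 to 16.4%) had a UMI. In p63-KO fibroblast-like cells, 2 of 513 cells (0.39%, 0.0472 to 1.40%) had a Tfap2a UMI, at a median depth of 10809 UMIs, so the p63-KO epithelial share was at the level of background. After each cell was thinned to 2000 UMIs, 0 of 1659 p63-KO cells had one (upper limit 0.222%), against 138 of 5272 wild-type cells (2.62%, 2.20 to 3.09%).

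Grhl3, the grainyhead-like factor needed for the epidermal barrier, had 17.5 CPM in p63-KO and 60.7 CPM in wild-type epithelial-like cells, 3.47-fold lower (3.26 to 3.70). Ovol1 had 15.1 CPM in p63-KO and 32.4 CPM in wild-type cells, 2.15-fold lower (2.0 to 2.32). The Ovol1 difference stood near the 2-fold limit: its log2 ratio was -1.06, and -0.80 when every cell weighed equally. In cells thinned to 2000 UMIs, Grhl3 was found in 3.74% of p63-KO cells (2.88 to 4.77%) and 8.29% of wild-type cells (7.56 to 9.07%). Ovol1 was found in 2.17% (1.52 to 2.99%) and 5.14% (4.56 to 5.77%) of p63-KO and wild-type cells. Without thinning these shares were higher in the deeper p63-KO library, 36.7% against 33.1% for Grhl3 and 35.5% against 22.3% for Ovol1, the reverse of the CPM. In thinned p63-KO fibroblast-like cells, 0 of 508 had a UMI of either gene (upper limit 0.724%).

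Ehf lay just inside the limit on the other side. It had 413 CPM in p63-KO and 209 CPM in wild-type epithelial-like cells, 1.98-fold (1.94 to 2.02), and in thinned cells it was found in 49.1% of p63-KO cells (46.7 to 51.6%) and 25% of wild-type cells (23.9 to 26.2%). It passed 2-fold when neuroendocrine-, ciliated- and ionocyte-like cells were left out, with a log2 ratio of 1.17 against 0.98 with them. Elf3, the other epithelial ETS factor, had 162 CPM in p63-KO and 126 CPM in wild-type cells (1.29-fold, 1.25 to 1.33), with thinned shares of 26.3% and 14.9%. Grhl2 had 117 CPM in p63-KO and 148 CPM in wild-type cells, 1.27-fold lower (1.23 to 1.31), with thinned shares of 16.6% and 24.6%.

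The remaining 4 factors differed by less than 1.2-fold. Klf5 had 771 CPM in p63-KO and 662 CPM in wild-type cells, Tfap2c 21.9 and 19.0 CPM, Grhl1 34.9 and 37.3 CPM, and Klf4 156 and 149 CPM. With 1 library a group, a difference of this size cannot be set against the spread between embryos, and fewer cells of a state and less RNA per cell cannot be told apart in such sums. Klf4 is also known as an immediate-early gene. A list of 8 immediate-early and heat-shock genes chosen after the data were seen (Fos, Fosb, Jun, Junb, Egr1, Atf3, Hspa1a, Hspa1b) summed to 4409.9 CPM in p63-KO and 1502 CPM in wild-type epithelial-like cells. Its part in the level of Klf4 was not tested.

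**Figure D2:**
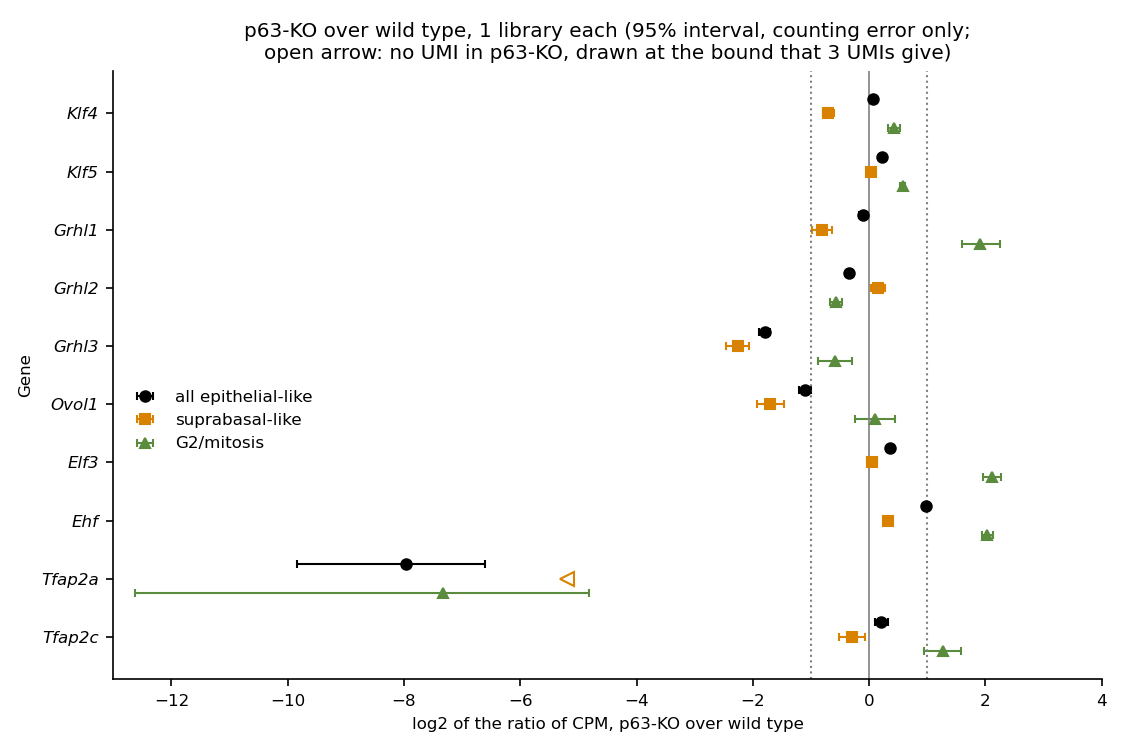
log2 of the ratio of CPM, p63-KO over wild type (x axis), for each factor (y axis) in all epithelial-like cells, in suprabasal-like cells and in cells of G2 and mitosis, with exact conditional 95% intervals and dotted lines at 2-fold. Grhl3 and Ovol1 lie furthest below 0 in suprabasal-like cells, Grhl1, Elf3, Ehf and Tfap2c lie above 2-fold in G2 and mitosis, and Tfap2a lies far below 0 in each set.

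Cells named from the same markers were then compared across the libraries. The suprabasal-like p63-KO cells were subcluster 1 (293 cells, 22163 UMIs at the median), named from 4 markers, and the wild-type ones were subclusters 2 and 10. The p63-KO cells went by that name with lower suprabasal markers: the 9 suprabasal markers summed to 8848 CPM there and to 35412 CPM in wild-type suprabasal-like cells, and Krt6a had 17.2 CPM there. Grhl3 had 28.3 CPM in p63-KO and 135.6 CPM in wild-type suprabasal-like cells, 4.79-fold lower (4.19 to 5.49). Ovol1 had 20.4 and 66.2 CPM, 3.24-fold lower in p63-KO (2.76 to 3.82). Tfap2a had 0 UMIs in p63-KO and 189 in wild-type cells (12.6 CPM), 36.7-fold lower if the summed p63-KO cells are set at 3 UMIs, with 29.5-fold as the lower limit of the exact interval. These were the 3 factors at least 2-fold lower, where 8.92% of 10681 measured genes were, and 0 were higher, where 14.0% were.

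Among the others, Klf4 had 138 CPM in p63-KO and 224.5 CPM in wild-type suprabasal-like cells (1.62-fold lower, 1.52 to 1.74), and Grhl1 43.3 and 75.6 CPM (1.75-fold lower, 1.55 to 1.97). Elf3 had 206 CPM in p63-KO and 200.3 CPM in wild-type cells, Klf5 914.5 and 891.8 CPM, Ehf 503.9 and 404.3 CPM, Grhl2 115 and 104 CPM, and Tfap2c 27.3 and 33.5 CPM. The near-equal Elf3 levels depended on where the layer was drawn: at clustering resolution 0.4, where superficial cells had no cluster of that name, the log2 ratio was -0.70 in place of 0.04, and that of Grhl1 was -1.01 in place of -0.79.

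In cells of G2 and mitosis, named from cell-cycle markers alone, the differences lay elsewhere. These cells were not alike in their keratins. Krt5 had 0.259 CPM in the p63-KO cells, and 946 and 1121 CPM in wild-type subclusters 5 and 6. Krt13 had 2235 CPM in the p63-KO cells, and 1324 and 1457 CPM in the wild-type ones. Grhl1 had 31.2 CPM in p63-KO and 8.28 CPM in wild-type cells (3.77-fold higher, 3.01 to 4.74), Elf3 146.6 and 33.8 CPM (4.34-fold, 3.89 to 4.84), Ehf 443 and 108.0 CPM (4.10-fold, 3.86 to 4.36) and Tfap2c 23.6 and 9.84 CPM (2.40-fold, 1.93 to 3.0). These 4 were at least 2-fold higher, where 14.4% of 11387 measured genes were, and Tfap2a, with 1 UMI in p63-KO and 168 in wild-type cells, was the 1 lower (13.5%). Its ratio was 160-fold, with a counting interval from 28.3 to 6351. Grhl3 had 14.3 CPM in p63-KO and 21.4 CPM in wild-type cells, and Ovol1 12.5 and 11.6 CPM. The p63-KO cells here had a median of 60187 UMIs and the wild-type cells 11160 UMIs. Ciliated-like cells could not be set side by side, since the wild-type library held 24 of them.

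The p63-KO library had no subcluster named basal-like. Its subcluster 3 (254 cells, led by Cryab, Trabd2b, Sema3a and Pdpn, unnamed) had the Krt15 level of 6858 CPM with Krt4 at 916 CPM and Krt5 at 0 UMIs. Against wild-type basal-like cells, Ehf had 475.7 CPM in subcluster 3 and 40.7 CPM in basal-like cells (11.7-fold, 10.0 to 13.6), Grhl1 36.3 and 6.56 CPM (5.54-fold, 3.77 to 8.42), Elf3 168.5 and 44.1 CPM (3.82-fold, 3.28 to 4.46) and Tfap2c 27.1 and 13.1 CPM (2.06-fold, 1.53 to 2.81). Those 4 were at least 2-fold higher, where 15.6% of 11231 measured genes were. Grhl3 had 12.1 CPM in subcluster 3 and 12.0 CPM in basal-like cells, and Ovol1 12.1 and 11.5 CPM. So in these p63-KO cells Grhl1, Elf3 and Ehf stood above, and Grhl3 and Ovol1 within counting error of, the wild-type basal level.

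From subcluster 3 to the suprabasal-like cells of the p63-KO library, the factors differed little. Grhl3 had 28.3 CPM in the suprabasal-like cells and 12.1 CPM in subcluster 3, 2.35-fold higher (1.84 to 3.02), and was the 1 factor of 9 measured past 2-fold, where 1.22% of 10550 measured genes were higher. Ovol1 had 20.4 and 12.1 CPM (1.69-fold, 1.31 to 2.20), Elf3 206 and 168.5 CPM (1.22-fold), Grhl1 43.3 and 36.3 CPM (1.19-fold), Ehf 503.9 and 475.7 CPM (1.06-fold), and Klf4 138 and 169 CPM (a log2 ratio of -0.28). In the wild-type step from basal-like to suprabasal-like cells, the log2 ratios were 3.39 for Grhl3, 2.42 for Ovol1, 2.16 for Elf3, 3.34 for Grhl1, 3.28 for Ehf and 1.15 for Klf4. The 2 steps join states that were named differently. The 9 suprabasal markers summed to 2184 CPM in subcluster 3 and 8848 CPM in p63-KO suprabasal-like cells. In wild-type basal-like and suprabasal-like cells they summed to 3471 and 35412 CPM. The 9 basal markers summed to 7372 and 8627 CPM over the p63-KO step, and to 15114 and 11188 CPM over the wild-type step. The steps are thus not alike in their markers, and the difference between them was not tested.

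The same cells were also ordered by keratins in place of clusters. Krt4 and Krt13 are among the markers used to name suprabasal cells, so this order is not independent of the clusters. The bins took all epithelial-like states, which in p63-KO included neuroendocrine-, ionocyte-, mucous- and ciliated-like cells. The part of these states in the p63-KO levels per bin was not tested. Each cell's share of Krt4 and Krt13 among Krt4, Krt13, Krt5, Krt14 and Krt15 UMIs was computed, and the cells of each library were cut into 5 bins of equal size. The 99 of 1682 p63-KO epithelial-like cells with no UMI of these keratins were left out, and 0 of 5358 wild-type cells. In p63-KO cells, Elf3 had 140, 157, 162, 173 and 174 CPM from the lowest to the highest bin, and in wild-type cells 27.7, 26.4, 40.7, 169 and 261 CPM. Ehf had 343, 451, 447, 414 and 400 CPM in p63-KO cells, and 49.4, 56.7, 83.7, 292 and 406 CPM in wild-type cells. Grhl1 had 26.8, 35, 33.0, 38.6 and 38.7 CPM in p63-KO cells, and 3.51, 4.60, 8.20, 52.0 and 83.1 CPM in wild-type cells. These 3 genes were nearly level over the p63-KO bins, and steep between the third and the fourth wild-type bin. The third wild-type bin began at a keratin share of 13.8%, and the fourth spanned 27.1 to 65.0%, so this step falls where the bins widen. In p63-KO the third bin began at 31.3% and the fourth spanned 45.9 to 56.5%. Bins of the same number thus cover different shares, and levels at equal shares were not tested.

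Grhl3 was graded in both libraries, with 6.67, 13.1, 14.4, 20.5 and 28.7 CPM in p63-KO and 8.51, 12.9, 19.1, 80.9 and 130 CPM in wild-type bins. Klf4 had 158, 171, 167, 155 and 134 CPM in p63-KO and 87.0, 93.2, 102, 167 and 234 CPM in wild-type bins, so its highest bin was the second in p63-KO and the highest in wild type. Grhl2 stayed between 111 and 123 CPM in the p63-KO bins and went from 178 CPM in the lowest to 95.6 CPM in the highest wild-type bin. The bins are not the same cells in both libraries: the highest bin began at a keratin share of 56.6% in p63-KO and 65.0% in wild type, and in p63-KO the basal keratin counted was almost wholly Krt15 (8173 CPM in the suprabasal-like cells, with Krt5 at 0.115 and Krt14 at 1.15 CPM).

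**Figure D3:**
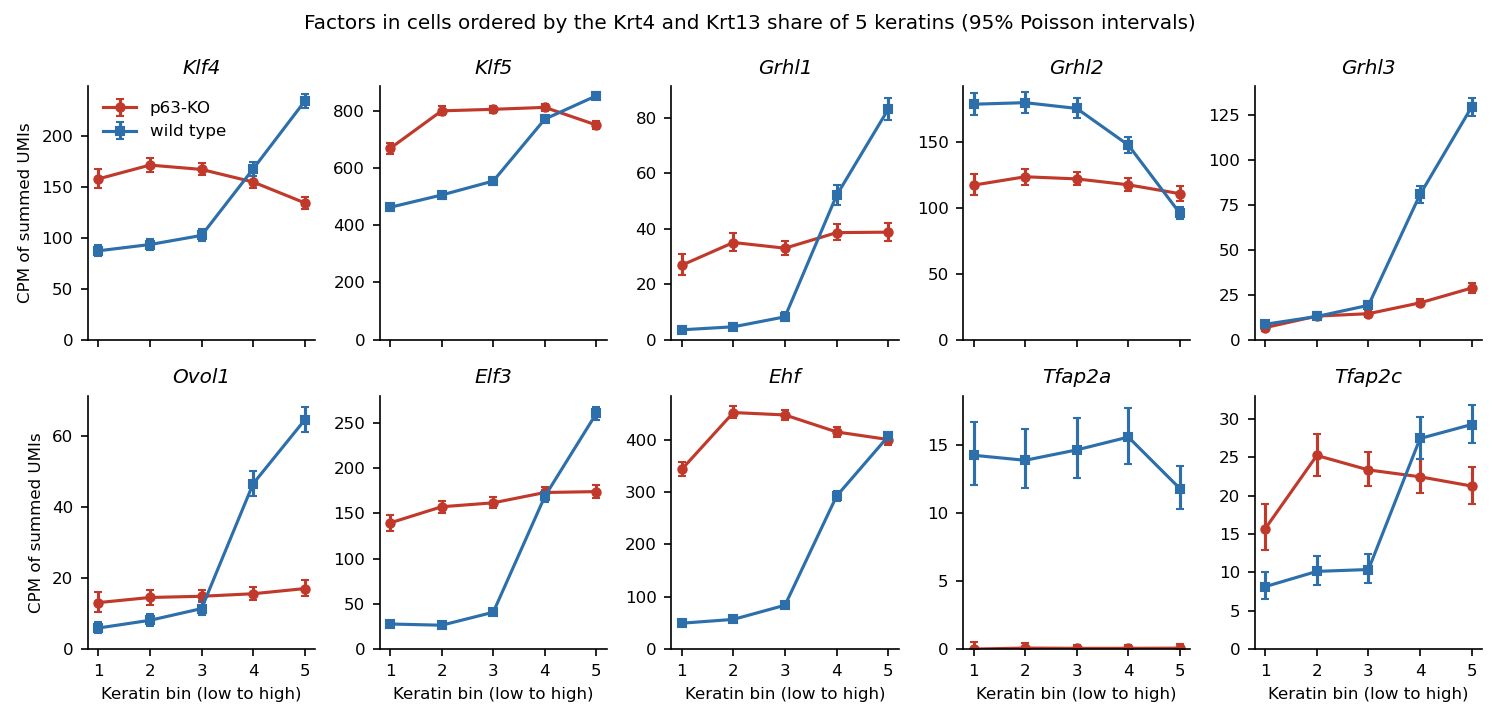
CPM of each factor (y axis, exact 95% Poisson intervals) in 5 bins of cells ordered by the share of Krt4 and Krt13 among 5 keratins (x axis, low to high), for p63-KO and wild type. Elf3, Ehf and Grhl1 are nearly flat in p63-KO, at 140 to 174, 343 to 451 and 26.8 to 38.7 CPM, and graded in wild type. The bins were cut within each library and span different keratin shares.

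Across the 11 p63-KO states, each of the 9 factors other than Tfap2a had its lowest level in neuroendocrine-like subcluster 4 or 11. Neuroendocrine cells are hormone-secreting cells. Chgb, a protein of their granules, had 2261 CPM in subcluster 4 and 5936 CPM in subcluster 11, but 47.1 CPM in subcluster 8, which met 4 markers of the name with none among its 10 leading genes. Against the other p63-KO epithelial-like cells, Ehf had 91.2 CPM in neuroendocrine-like cells and 438.7 CPM in the others (4.81-fold lower, 4.40 to 5.28), Tfap2c 3.94 and 23.4 CPM (5.93-fold lower, 3.87 to 9.61), Grhl3 2.25 and 18.7 CPM (8.31-fold lower, 4.74 to 16.1), and Grhl2 31.7 and 123 CPM (3.89-fold lower, 3.34 to 4.56). With Grhl1, Klf5 and Elf3, 7 of 9 measured factors were at least 2-fold lower, where 14.9% of 12506 measured genes were. Klf4 (118.5 and 158.9 CPM) and Ovol1 (11.8 and 15.3 CPM) were not. Without subcluster 8, an alternative chosen after seeing the data, the count was again 7 of 9, and the log2 ratio was -3.24 for Ehf, against -2.25 with it. The count rested on the removal of doublets: without it, 3 factors passed 2-fold.

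The neuroendocrine-like subclusters differed among themselves. Subclusters 4 (211 cells) and 11 (51 cells, led by Pyy and Sst) had 236 and 105 CPM of Klf5, 43.1 and 56.0 CPM of Ehf, and 32.9 and 20.6 CPM of Elf3. Subcluster 8 (83 cells, led by Gzma) had 434, 196 and 153 CPM of the same 3 genes. Tfap2c had 12.4 CPM in subcluster 8 and 0.33 CPM in subcluster 4, and no UMI in subcluster 11.

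Ionocyte-like cells, which express the forkhead gene Foxi1, split likewise. In subcluster 7 (98 cells), Ehf had 68.9 CPM against 425.8 CPM in the other p63-KO epithelial-like cells (6.18-fold lower, 5.33 to 7.20), Klf5 177.6 and 793.2 CPM (4.47-fold lower, 4.07 to 4.91), Ovol1 3.11 and 15.5 CPM (4.97-fold lower, 2.52 to 11.6), Tfap2c 5.06 and 22.5 CPM (4.45-fold lower, 2.60 to 8.38), and Grhl1 15.6 and 35.6 CPM (2.28-fold lower, 1.67 to 3.21). These were 5 of 9 measured factors, where 16.4% of 11717 measured genes were lower. Elf3 (197.8 and 160.9 CPM) and Klf4 (183.8 and 154.9 CPM) were not among them. Subcluster 9 (72 cells), also ionocyte-like, had 359 CPM of Ehf and 708 CPM of Klf5, and 0 of 9 factors at least 2-fold lower (4.57% of measured genes were). Its median depth was 68395 UMIs against 25134.5 in subcluster 7 and Krt15 stood at 3869 CPM in it. The part of doublets in subcluster 9 was not tested.

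In mucous-like cells (141) and ciliated-like cells (57), 0 of 9 measured factors were at least 2-fold lower than in the other p63-KO epithelial-like cells, where 7.35% and 3.42% of measured genes were, and 0 were higher, where 1.71% and 14.1% were. Mucous-like cells had the highest p63-KO levels of Ehf (508.7 CPM), Grhl1 (44.5 CPM), Grhl3 (28.7 CPM) and Ovol1 (21.2 CPM). They stood close to the suprabasal-like cells, with 503.9, 43.3, 28.3 and 20.4 CPM. For Ovol1, neuroendocrine-like subcluster 8 was as close, with 21.1 CPM (14.6 to 29.4). Over the 11 states, the highest and lowest levels differed 3.45-fold for Klf4, 8.75-fold for Klf5, 7.98-fold for Grhl2, 10.0-fold for Elf3 and 11.8-fold for Ehf. Of the 10 neighbouring pairs in each order, 7, 4, 8, 9 and 6 had overlapping counting intervals.

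**Figure D4:**
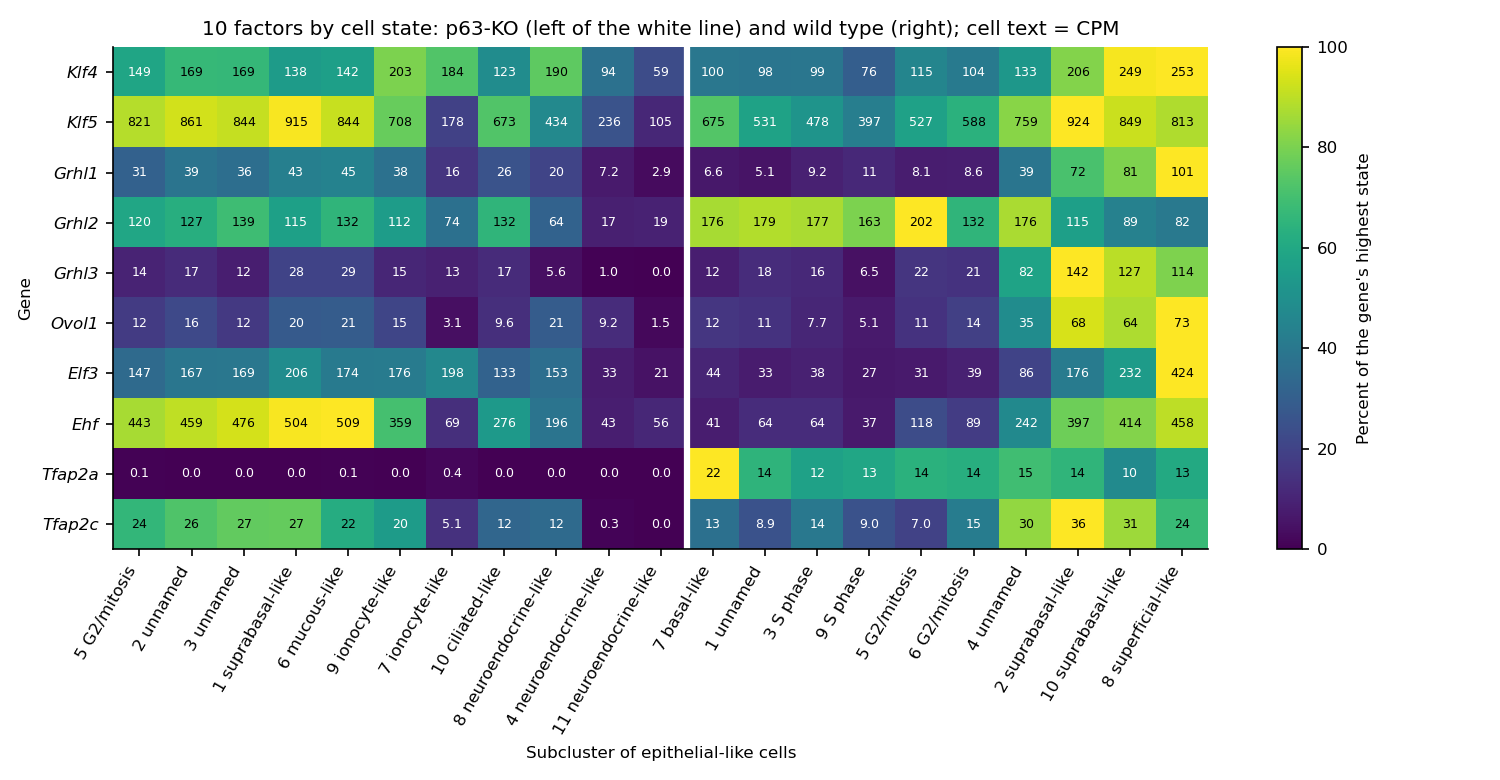
CPM of each factor (rows, numbers in the cells) in 11 p63-KO and 10 wild-type subclusters of at least 50 epithelial-like cells (columns), coloured by the percent of the gene's highest state. Most factors are dark in p63-KO subclusters 4 and 11, Tfap2a is dark in all p63-KO columns, and Grhl1, Ovol1, Elf3 and Ehf are brightest in wild type in subclusters 2, 10 and 8.

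Klf4 differed from the other 9 in its spread outside the epithelium. It had 689 CPM in p63-KO fibroblast-like cells, 143 CPM in smooth muscle or pericyte-like cells and 79.9 CPM in endothelial-like cells, against 156 CPM in p63-KO epithelial-like cells. In thinned cells it was found in 64.0% of fibroblast-like cells (59.6 to 68.2%), 23.6% of p63-KO epithelial-like cells (21.5 to 25.7%) and 21.9% of wild-type epithelial-like cells (20.8 to 23.0%). For the other factors the thinned share of fibroblast-like cells with a UMI was 4.13% for Klf5, 1.77% for Ehf, 0.984% for Elf3 and at most 0.197% for the rest. The share of Klf4 in fibroblast-like cells was above that in epithelial-like cells, so it gives no background level for this gene.

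**Figure D5:**
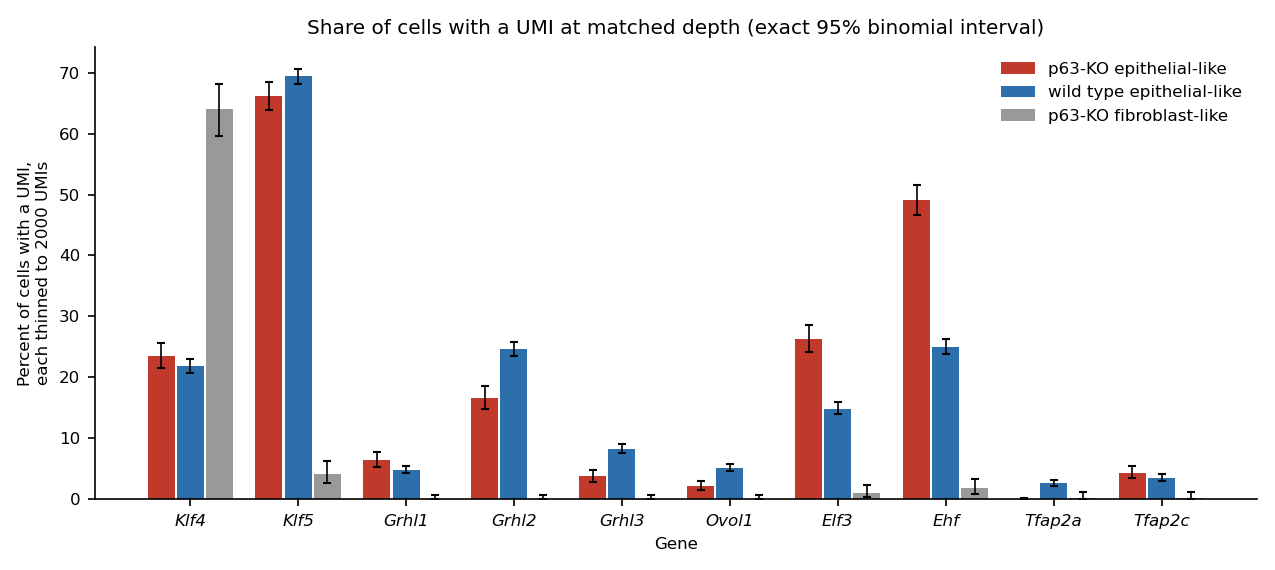
Percent of cells with a UMI after thinning to 2000 UMIs (y axis, exact 95% binomial intervals) for each factor (x axis) in p63-KO epithelial-like, wild-type epithelial-like and p63-KO fibroblast-like cells. Ehf stands at 49.1% in p63-KO against 25% in wild type, Tfap2a at 0% against 2.62%, and Klf4 alone is found in over 60% of fibroblast-like cells.

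Of 30 KLF, OVOL, ETS, AP-2 and grainyhead-related genes, 21 were measured in epithelial-like cells, with 7 at least 2-fold higher in p63-KO, where 15.0% of all measured genes were, and 1 lower, where 8.82% were. Spdef, an ETS factor of mucous cells, had 25.1 CPM in p63-KO and 0.365 CPM in wild type. Klf2 had 80.9 and 7.13 CPM, Tfcp2l1, a grainyhead relative, 201 and 22.4 CPM, Elf4 19.5 and 5.80 CPM, and Klf6, like Klf4 known as an immediate-early gene, 488 and 174 CPM. Klf9 and Klf13 were the other 2, and Ets1 the lower one (1.51 and 9.27 CPM). In wild-type superficial-like against basal-like cells, 20 were measured, with 2 higher and 7 lower, shares near those of all measured genes (13.5% higher and 30.5% lower). Elf5, another epithelial ETS factor, had 70.5 CPM in superficial-like and 2.49 CPM in basal-like cells, while Ovol2, the paralog of Ovol1, had 7.68 and 26.3 CPM.

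Of 26 other regulators of stratified epithelium, 22 were measured, with 2 at least 2-fold higher in p63-KO and 11 lower, where 15.0% and 8.82% of all measured genes were. The higher ones were Runx1 (524 CPM in p63-KO and 154 CPM in wild type) and Nfe2l2 (168 and 71.5 CPM). Among the lower ones was Trp63 itself, the gene of the p63-CreER allele, with the levels given above. It is also a marker used to name basal cells. Zfp750, a factor that acts downstream of p63 in epidermis, had 22.0 CPM in p63-KO and 80.5 CPM in wild type, and Hopx, a homeodomain-only protein of differentiating cells, 56.5 and 515 CPM. Sim2 had 0.636 CPM in p63-KO and 109 CPM in wild type, and Barx2 had 4.67 CPM in p63-KO and 69.6 CPM in wild type. The foregut factors Sox2 (150 and 210 CPM) and Pax9 (156 and 228 CPM) were under 2-fold. The median log2 ratio was 0.42 over the measured family relatives, -0.95 over the measured other regulators and -0.02 over all measured genes.

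Genes of squamous differentiation were mostly lower in p63-KO epithelial-like cells. Which of them the transcription factors described here control was not tested. Of 45 keratin, envelope, junction and lipid barrier genes of differentiating squamous cells, 35 were measured, with 29 lower by at least 2-fold in the p63-KO library (8.82% of all measured genes) and 1 higher (15.0%), and the median log2 ratio was -2.27. The list was chosen with earlier results of these data known, and 18 of its genes are also markers used to name cells, so its direction is not independent evidence. Tgm3, the transglutaminase of the envelope, had 0.982 CPM in p63-KO and 126 CPM in wild type. The barrier protease inhibitor Spink5 had 0.0553 and 40.4 CPM, and the desmosomal cadherin Dsg3 16.5 and 353 CPM. Rptn, an envelope gene, was the 1 higher (6.33 and 1.45 CPM), and Krt10, Lor, Alox12, Anxa1 and Cldn4 were under 2-fold. In suprabasal-like cells, p63-KO levels of 32 of the 37 measured were lower by 2-fold or more, where 8.92% of all measured genes were. Of the factors themselves, Grhl3, Ovol1 and Tfap2a were lower there by at least 2-fold, Grhl1 was 1.75-fold and Klf4 1.62-fold lower, and Klf5, Grhl2, Elf3, Ehf and Tfap2c were within 1.25-fold of wild type.

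The genes whose levels were most like each factor's over all 21 states were found by Pearson correlation of log2 CPM (1 added) among 10508 genes with at least 20 CPM in a state, and are given as a description. They were Prdm1 for Klf4 (0.94), Emp1 for Klf5 (0.95), Cgn for Grhl1 (0.98), Cavin1 for Grhl2 (0.97), Hspa1b for Grhl3 (0.96), Tmprss4 for Ovol1 (0.94), Acadl for Elf3 (0.96), Trim16 for Ehf (0.96), Cyp3a13 for Tfap2a (0.99) and Plpp2 for Tfap2c (0.97). Hspa1b is a heat-shock gene, and another, Hspb1, was next for Grhl3 (0.96). The 8 immediate-early and heat-shock genes summed to 1303 CPM in wild-type basal-like, 2024 CPM in suprabasal-like and 1769 CPM in superficial-like cells. Of the 8, the heat-shock genes Hspa1a and Hspa1b had 8.60, 37.2 and 41.2 CPM and 9.73, 54.6 and 53.7 CPM in these layers. The part of such genes in the level of Grhl3 was not tested.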

How the data were processed

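The deposited values are whole-number UMI counts per gene and barcode, which the authors did not normalize as far as the files show. Per the submitters' processing notes, reads were processed with Cell Ranger 7.1.0 against mm10, and per the labels' protocols libraries came from a droplet kit that counts 3′ ends. Not given in the sources used here are the annotation release, the cell calling and whether intronic reads were counted. The epithelium, freed of muscle, was dissociated with dispase (5 min) and 0.1% trypsin (10 min at 37 °C), per the labels' protocols.

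The p63-KO library held 2821 barcodes and 86504624 UMIs, the wild-type library 6034 barcodes and 76472445 UMIs. A cell was kept from 500 genes and 1000 UMIs upwards if mitochondrial UMIs made up 10% or less (2422 p63-KO and 5787 wild-type cells). Doublets were scored by simulated neighbours and removed at 0.8% per 1000 cells (47 p63-KO and 268 wild-type cells). Cells were clustered jointly on 2000 variable genes with the 20 nearest neighbours in 30 components (Leiden resolution 1), and epithelial-like cells of each library again at 0.6, with Python 3.11.15, pandas 2.3.3, scipy 1.17.1, numpy 2.4.6, igraph 0.11.9, scikit-learn 1.9.0, matplotlib 3.10.9 and leidenalg 0.10.2. To be named, a subcluster needed 3 or more markers of a type, each in 25% or more of its cells and 2-fold above the other cells.

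UMIs were summed per group of cells and scaled to CPM. Log2 ratios had 1 CPM added to both sides and understate changes of low genes, and folds had none added. A fold against 0 UMIs was taken against 3 UMIs over the summed cells. Intervals are exact Poisson (CPM), conditional binomial (folds) and Clopper-Pearson (shares), all at 95%. Shares were compared after thinning each cell to 2000 UMIs, which left out 23 p63-KO and 86 wild-type cells. No test was possible between groups of 1 library. The fold and its interval were tested on simulated data. All 10 factors and list members by role are named. The factors, lists and markers were chosen with earlier results of these data known. Alternatives covered the filter, doublets, clustering, scaling, added CPM, minimum CPM, cell weights and cell sets.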

Additional observations from a re-analysis of the deposited data

Results flagged for a closer look

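Some factors stood on opposite sides of wild type in 2 kinds of cells, and these differences were not tested. In both kinds, the p63-KO and wild-type cells also differed in layer markers, as given above. For Klf4, the log2 ratio of p63-KO over wild type was -0.70 in suprabasal-like cells and 0.42 in cells of G2 and mitosis. For Grhl1 the ratios were -0.79 in suprabasal-like cells and 1.79 in G2 and mitosis, and for Tfap2c -0.29 and 1.18. Grhl2 had the opposite order, with 0.15 in suprabasal-like cells and -0.56 in G2 and mitosis. Klf4 also differed between the libraries in its step towards suprabasal-like cells, with a log2 ratio of -0.28 against subcluster 3 in p63-KO and 1.15 against basal-like cells in wild type, again untested.

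Outside the epithelium, Klf4 had 689 CPM in p63-KO fibroblast-like cells, a level above that of either library's epithelial-like cells.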

How the results depend on the processing

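Among counts of genes past 2-fold under the alternatives, 202 were within 1.5 times the reported count and 16 were not. Of log2 ratios and shares of single factors, 426 lay within the counting error of the reported value, 178 moved beyond it and 3 reversed. The 3 do not cover every change of sign. Klf4 kept the sign of its log2 ratio, p63-KO over wild type, in 12 of 17 alternatives, Grhl1 and Tfap2c in 15 and Elf3 in 16. Between suprabasal-like cells, Klf5 and Elf3 kept it in 5 of 7 and Ehf in 6. Tfap2a kept it in 7 of 8 for wild-type suprabasal-like against basal-like cells. For p63-KO against wild type, 1 factor in place of 0, Ehf, was at least 2-fold higher under the stricter cell filter, median-ratio scaling, equal weight of every cell, cells with Y-linked RNA alone, and without neuroendocrine-, ciliated- and ionocyte-like cells. Of the 45 differentiation genes, 2 (equal weight), 4 (no minimum CPM) and 0 (at least 20 CPM) were higher in place of 1. Of the family relatives, 2 (no minimum CPM, or without cycling cells) and 0 (at least 20 CPM) were lower in place of 1, and of the other regulators 7 (at least 20 CPM) in place of 11. Within p63-KO, 2 factors in place of 0 were lower in ionocyte-like cells with equal weight, and 3 in place of 7 in neuroendocrine-like cells with no doublets removed. Within wild type, 1 factor in place of 0 was lower in suprabasal-like cells at resolution 0.4, and 0 in place of 1 in the highest against the lowest keratin bin. The causes were not tested. Without thinning, the difference in the share of cells with a UMI, p63-KO minus wild type, reversed to 2.91 percentage points for Grhl2, 3.57 for Grhl3 and 13.2 for Ovol1, in the library of greater depth.

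Over 17 alternatives the log2 ratio of p63-KO over wild type ran from -2.17 to -1.55 for Grhl3, -1.48 to -0.80 for Ovol1, -4.11 to -1.90 for Tfap2a and 0.54 to 1.17 for Ehf, and for Klf4 from -0.21 to 0.56. Leaving out p63-KO subclusters 2 and 9, p63-KO subcluster 8 or the cells in clusters of the other library, or taking basal cells from subclusters 1 and 7 were alternatives chosen after seeing the data. At resolution 0.4 no cells were named superficial, so that comparison gave no value. No paired analysis was possible because each group had 1 library. A single library per group, and p63-KO cells of greater depth, limit all comparisons between groups.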
